A study of Arabidopsis thaliana with 9 samples.

Results

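AT3G12900, AT3G13610, BHLH101 and PYE are 4 Arabidopsis thaliana genes of the root response to iron shortage, 2 of them enzymes of coumarin synthesis and 2 of them transcription factors. They were chosen by name, as the probe sets that the platform annotation assigns to each of these genes alone, and each of the 4 had 1 such probe set among the 13350 genes named in this way, on an array of 22746 probe sets. The probe sets were 257135_at for AT3G12900, 256647_at for AT3G13610, 245692_at for BHLH101 (locus AT5G04150) and 252427_at for PYE (locus AT3G47640). The gene table of the TAIR10.1 assembly places BHLH101 on chromosome 5 and the other genes on chromosome 3.

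RNA came from whole roots 7 days after germination and was hybridised to 9 ATH1 arrays, 1 per sample, 3 biological replicates for each of 3 genotypes. The ga1-3 mutation, which disrupts a gibberellin biosynthesis gene, was present in every plant, so no group here had wild-type gibberellin synthesis. The first group was ga1-3 alone, the second, called scl3-1 here, was ga1-3 scl3-1 with a loss-of-function allele of SCL3, and the third, called SCL3 OE here, was ga1-3 overexpressing SCL3. SCL3 is a GRAS-family protein that acts in gibberellin signalling. Plants grew on MS medium at 22 °C under 16 h of light and 8 h of dark, and no iron treatment was labelled. The promoter behind the overexpression, the number of independent lines and any pooling of plants were not given in the sources used here.

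Signals are MAS5 intensities on a linear scale, and all changes are differences of log2 signal. A filter on low signals kept 14117 probe sets that reached their array's 40th percentile, a signal of 105.9 on average, on 3 or more arrays. A probe set was called changed at a Benjamini-Hochberg adjusted p under 0.05 in limma over all kept probe sets. The genotype labels could not be checked by SCL3 or GA1, since no named probe set measured them. Array medians were 182.7 to 184.5 in SCL3 OE and 189.7 to 204.3 on the other arrays, while the 99th percentile was 8374 to 9087 in SCL3 OE and 5846 to 6649 elsewhere. The whole-root label was checked on marker genes: PYK10, abundant in roots, had a signal of 11310 or more on every array. Both measured markers of green shoot tissue, RCA (960 to 1284) and LHCB4.1 (577 to 1025), were also above the filter level on every array. The markers listed for stele and root cap were on no named probe set.

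Arabidopsis roots take up iron by acidifying the soil, reducing ferric iron at the surface and importing ferrous iron. They also release coumarins, phenolic compounds that mobilise and reduce ferric iron. In this pathway AT3G13610 (F6'H1) hydroxylates feruloyl-CoA on the way to scopoletin, and AT3G12900 (S8H) hydroxylates scopoletin to fraxetin. BHLH101 belongs to the subgroup Ib bHLH factors, which pair with FIT to turn on uptake genes, and PYE (POPEYE) is a bHLH factor that represses genes of iron distribution in the stele. Both transcription factor genes are known to rise when roots run short of iron, as do both enzyme genes.

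The question of the first comparison was which genes differ in ga1-3 roots when SCL3 is overexpressed. In SCL3 OE roots both coumarin enzymes and BHLH101 rose, and PYE did not pass the test. AT3G13610 was 1.644-fold higher by the fitted means. AT3G12900 and BHLH101 were below the filter level on every ga1-3 array, and with such signals raised to that level, a setting added after the data were seen, they were 2.445-fold and 1.999-fold higher. On the deposited signals these folds were 16.83 and 2.717, and the part of each that lies below the filter level is not shown to be above background. In bulk root RNA, a change in the number of cells of a type and a change in RNA per cell cannot be told apart. In this comparison 18.0% of all tested probe sets were called higher and 25.9% lower, 43.8% in all, beside 3 of the 4 genes called higher. AT3G12900 and BHLH101 passed the filter through the SCL3 OE arrays alone. The 4 genes were also chosen with earlier results of these data known. The count is therefore no evidence that such genes rose more often than others.

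BHLH101, the subgroup Ib factor, had signals of 78.0, 100.7 and 59.4 in ga1-3, 61.1, 103.7 and 81.8 in scl3-1, and 221.3, 228.5 and 185.1 in SCL3 OE. All 3 SCL3 OE arrays lay above all other arrays, and the ga1-3 and scl3-1 arrays overlapped. Groups that did not overlap were common: SCL3 OE and ga1-3 did not overlap for 53.6% of tested probe sets, with SCL3 OE higher for 22.1%. Group means were 79.4 ± 20.6 in ga1-3, 82.2 ± 21.3 in scl3-1, against 212 ± 23.3 in SCL3 OE (SD, n = 3 each). The change from ga1-3 to SCL3 OE was 1.44 (SE 0.23, 95% interval 0.96 to 1.92, limma adjusted p = 0.000121). Its signal was below the filter level on all 6 ga1-3 and scl3-1 arrays, so the probe set was tested through the SCL3 OE arrays alone. With lower signals raised to the filter level, the rise was 0.999, ranked 264 among the changes of 14117 probe sets, against 115 on the deposited signals.

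PYE, the other bHLH factor, had signals of 219.3, 232.1 and 214.6 in ga1-3, 238.8, 230.3 and 244.4 in scl3-1, and 234.1, 256.0 and 239.1 in SCL3 OE. The lowest SCL3 OE array was just above the highest ga1-3 array, 234.1 against 232.1, and the scl3-1 arrays overlapped both groups. The difference of 0.13 between SCL3 OE and ga1-3 (SE 0.12) did not pass the test, with a limma adjusted p of 0.388. Its 95% interval ran from -0.12 to 0.38, or 0.921-fold to 1.301-fold. The spread between replicates was narrow, with coefficients of variation of 2.98% to 4.71% in the 3 groups. All 9 arrays were above the filter level for this gene.

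**Figure D1:**
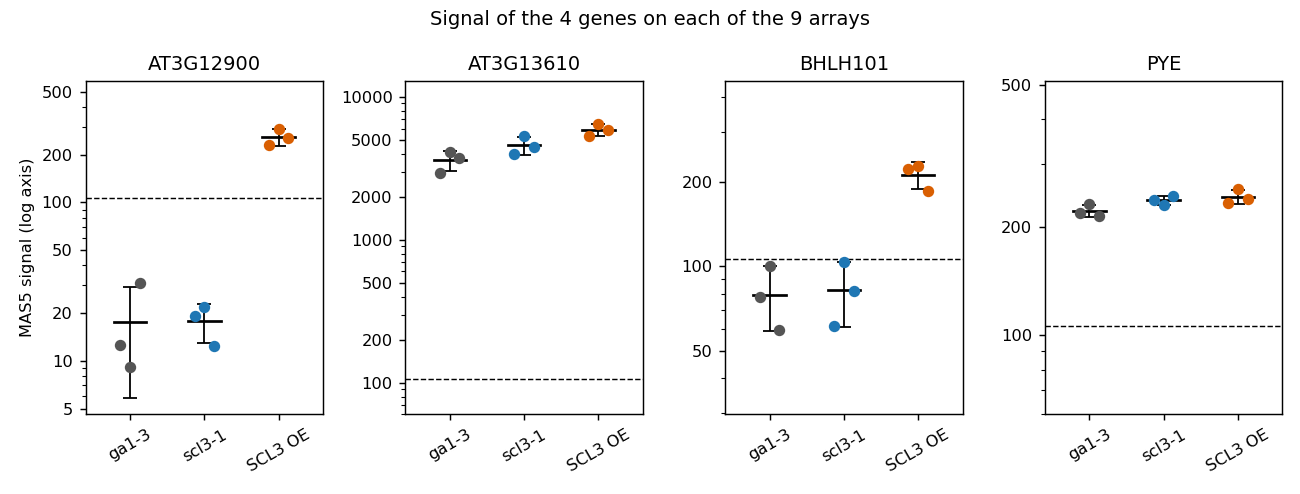
MAS5 signal of each gene on each of the 9 arrays, on log axes that differ between panels. Points are arrays (3 per group), horizontal bars group means with SD, and the dashed line is the mean filter level of 105.9; AT3G12900 and BHLH101 crossed that line on the SCL3 OE arrays alone.

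AT3G13610 (F6'H1), the enzyme of the step to scopoletin, had signals of 2950, 4100 and 3744 in ga1-3, 4000, 5298 and 4448 in scl3-1, and 5316, 6451 and 5867 in SCL3 OE. The ga1-3 and SCL3 OE arrays did not overlap, and scl3-1 lay between them, overlapping ga1-3. Group means were 3598 ± 589 in ga1-3, 4582 ± 659 in scl3-1, against 5878 ± 567 in SCL3 OE (SD, n = 3 each). The change from ga1-3 to SCL3 OE was 0.72 (SE 0.13, 95% interval 0.45 to 0.99, limma adjusted p = 0.000362), with a rank of 700 by size of rise. This probe set was among the brightest on each array, at percentiles 95.8 to 97.4 of its array in ga1-3, 97.3 to 98.5 in scl3-1 and 97.8 to 98.3 in SCL3 OE. The bright end of the SCL3 OE arrays was itself higher, as given above, and with quantile normalization, which makes all arrays share 1 distribution, the change was 0.44 with an adjusted p of 0.0139.

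AT3G12900 (S8H), the enzyme of the step to fraxetin, had signals of 12.6, 9.18 and 31.1 in ga1-3, 19.3, 21.9 and 12.4 in scl3-1, and 230.1, 292.0 and 254.9 in SCL3 OE. Every SCL3 OE array was far above every other array, and ga1-3 and scl3-1 overlapped. Group means were 17.6 ± 11.8, 17.9 ± 4.90 and 259 ± 31.2 (SD, n = 3 each) in that order of groups. The change from ga1-3 to SCL3 OE was 4.07 (SE 0.39, 95% interval 3.24 to 4.91, limma adjusted p = 1.22e-06). The probe set passed the filter through its SCL3 OE arrays alone.

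The size of that rise depends on 6 very low signals. On the ga1-3 arrays the gene stood between percentiles 13.1 and 23.1 of its array, on the scl3-1 arrays between 16.6 and 20.5, and on the SCL3 OE arrays between 54.7 and 59.9. The table holds no detection calls, and differences between such low signals may not follow RNA amounts. With 50 added to all signals before log2 the rise was 2.20, and with signals below the filter level raised to it the rise was 1.29. The rank of the rise among 14117 probe sets was 3 on the deposited signals, 12 with the offset and 131 with raised signals, so neither its size nor its rank is settled. The call held with the offset (limma adjusted p = 1.38e-08), which also narrowed the scatter of the low signals (SE 0.14 against 0.39). That p is no stronger evidence than the one on the deposited signals, where the filter was passed through the SCL3 OE arrays alone. With raised signals the limma adjusted p was 1.13e-06. In that setting all 6 ga1-3 and scl3-1 signals equal their array's filter level, which the SCL3 OE arrays had to reach. That call is therefore no separate support.

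**Figure D2:**
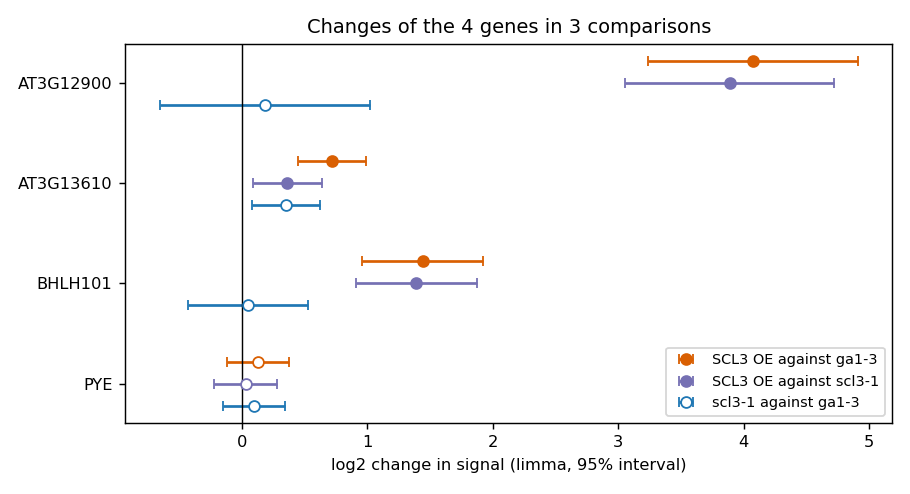
Difference of log2 signal for each gene in the 3 comparisons, with 95% intervals from limma; filled points were called at an adjusted p under 0.05. The SCL3 OE comparisons share arrays, and on the deposited signals the rise of AT3G12900, which starts below the filter level, lay apart from the other genes.

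The second comparison asked what loss of SCL3 changes in ga1-3 roots. No gene of the 4 was called in scl3-1 against ga1-3, where 0.538% of tested probe sets were called (0.368% higher and 0.17% lower), 76 in all, and 1506 had an unadjusted p under 0.05. AT3G13610 was the gene of the 4 with an unadjusted p under that value, a difference of 0.35 (95% interval 0.08 to 0.62), unadjusted p = 0.0144, limma adjusted p = 0.3. The other differences were 0.18 for AT3G12900 (95% interval -0.65 to 1.02, adjusted p = 0.927), 0.05 for BHLH101 (-0.43 to 0.53, adjusted p = 0.971) and 0.10 for PYE (-0.15 to 0.35, adjusted p = 0.841). The interval was widest for AT3G12900, whose coefficient of variation was 66.8% in ga1-3. The groups overlapped for AT3G12900, AT3G13610, BHLH101 and PYE, while they did not for 14.1% of all tested probe sets, with scl3-1 higher for 7.37%. A difference that misses the threshold does not show equal levels in ga1-3 and scl3-1.

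The third comparison set both SCL3 genotypes against each other. Relative to scl3-1, the SCL3 OE roots had higher AT3G12900 (3.89, 95% interval 3.05 to 4.72, limma adjusted p = 2.07e-06, and 1.24 with signals raised to the filter level) and higher BHLH101 (1.39, 0.91 to 1.87, adjusted p = 0.000184, and 0.95 with raised signals). In this comparison 39.2% of tested probe sets were called, 15.5% higher and 23.6% lower. AT3G13610 was higher by 0.36 (95% interval 0.09 to 0.64, adjusted p = 0.0337), with the lowest SCL3 OE array at 5316 and the highest scl3-1 array at 5298. These groups did not overlap for 52.8% of tested probe sets, with SCL3 OE higher for 21.3%. That call did not hold with quantile normalization, where the difference was 0.03 and the adjusted p 0.882. PYE differed by 0.03 (-0.22 to 0.28, adjusted p = 0.863). The comparison shares the SCL3 OE arrays with the first and the scl3-1 arrays with the second, so its values are not independent of theirs.

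**Figure D3:**
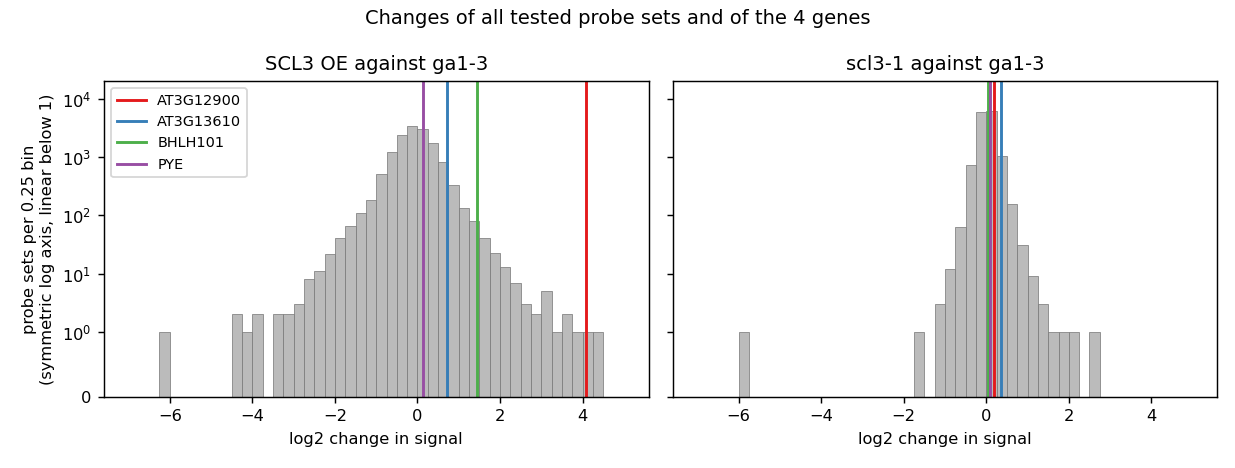
Number of tested probe sets per bin of log2 change (vertical axis symmetric-log) against ga1-3, with the 4 genes as vertical lines. In SCL3 OE, on the deposited signals, AT3G12900 lay in the far upper tail at 4.07 (1.29 with signals raised to the filter level) and BHLH101 at 1.44 (0.999), while in scl3-1 all 4 genes lay between 0.05 and 0.35.

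Among other regulators of the iron response, genes moved in both directions in SCL3 OE against ga1-3. Of 27 regulators listed, 14 were on a named probe set and 11 were tested: 4 rose, 2 fell and 5 did not pass, BHLH101 and PYE included. Over all tested probe sets 43.8% were called, 18.0% higher and 25.9% lower, and the 6 of 11 called here are to be read against that share. The median change over the 11 was 0.131, against -0.0663 over all tested probe sets. Without BHLH101 and PYE, 3 of 9 rose and 2 fell, with a median of 0.111. In scl3-1 against ga1-3 none of the 11 was called, with a median of 0.063. Over all tested probe sets 0.538% were called there, with a median of 0.00692, so no call among 11 genes is near that share. Relative to scl3-1, 2 of the 11 rose and 2 fell in SCL3 OE, with a median of 0.0908. In that comparison 39.2% of all tested probe sets were called, 15.5% higher and 23.6% lower, with a median of -0.0651. Without BHLH101 and PYE, 1 of 9 rose and 2 fell there.

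BTSL1, an E3 ubiquitin ligase known to mark FIT for degradation, rose from 413 ± 52.7 in ga1-3 to 1124 ± 41.1 in SCL3 OE, with 556 ± 81.5 in scl3-1 (SD, n = 3 each). Its change was 1.45 (SE 0.12, limma adjusted p = 3.14e-07), and its second probe set rose by 1.88 (SE 0.21, adjusted p = 5.57e-06). Mean signals of that second probe set were 63.2 in ga1-3, 82.6 in scl3-1, against 236 in SCL3 OE. The ga1-3 and scl3-1 signals lie below the filter level, so the size of its rise is uncertain. That probe set passed the filter through the SCL3 OE arrays alone, and its call is no separate support for the rise of BTSL1. Against scl3-1, BTSL1 in SCL3 OE was higher by 1.03 (adjusted p = 1.06e-05), while scl3-1 and ga1-3 differed by 0.42 (adjusted p = 0.168). BTSL2, its close relative, differed by 0.25 and did not pass (adjusted p = 0.255).

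URI (bHLH121), which acts upstream of the subgroup Ib genes and PYE, fell. Its signal was 580 ± 30.8 in ga1-3, 460 ± 52.2 in scl3-1, against 332 ± 56.1 in SCL3 OE (SD, n = 3 each), a change of -0.82 (SE 0.13, limma adjusted p = 0.000138). The subgroup IVc factors, partners of URI, did not move together. ILR3 fell by 0.34 (SE 0.10, adjusted p = 0.00932) and BHLH34 rose by 0.46 (SE 0.15, adjusted p = 0.0176). BHLH115 differed by 0.11 and BHLH104 by -0.11, and neither passed.

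The ILR3 call was lost without SCL3 OE replicate 2 (adjusted p = 0.0586), and the BHLH34 call without ga1-3 replicate 2 (0.055) or SCL3 OE replicate 3 (0.078). NAI1 (bHLH20), a subgroup IVa factor, rose by 0.45 (SE 0.16, adjusted p = 0.0367), and 7 alternatives ended that call, among them leaving out ga1-3 replicate 2 (adjusted p = 0.147). The other subgroup IVa genes, BHLH18, BHLH19 and BHLH25, failed the filter. Fitted with no filter, BHLH19 and BHLH25 were lower in SCL3 OE than in ga1-3, with log2 differences of -1.37 (limma adjusted p = 0.0299) and -2.64 (adjusted p = 0.0309), while BHLH18 differed by -0.48 (adjusted p = 0.474). Against scl3-1 the differences of BHLH19 and BHLH25 were -1.90 (adjusted p = 0.0055) and -2.89 (adjusted p = 0.0215). Mean signals of BHLH25 were 16.9 in ga1-3 and 5.31 in SCL3 OE, those of BHLH19 57.4 and 23.9, all below the filter level. On the SCL3 OE arrays BHLH25 had 1.74, 0.843 and 13.4. Neither the sizes nor the direction of these differences are shown to follow RNA amounts.

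Of 12 genes listed for coumarin synthesis and export, 7 were on a named probe set and all 7 were tested. In SCL3 OE 3 rose, none fell and 4 did not pass, against 18.0% higher and 25.9% lower over all tested probe sets, and 2 of the 3 are AT3G12900 and AT3G13610 themselves. The median was 0.222 over the 7 and 0.0804 over the 5 other than AT3G12900 and AT3G13610. The third was PYK10 (BGLU23), an abundant beta-glucosidase of root ER bodies that can cleave scopolin. Its signal was 12064 ± 898 in ga1-3, 12500 ± 1394 in scl3-1, against 21798 ± 2221 in SCL3 OE (SD, n = 3 each), a rise of 0.85 (SE 0.10, limma adjusted p = 1.2e-05). PYK10 was brighter still than AT3G13610, and with quantile normalization its rise was 0.22 (adjusted p = 0.0186).

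COSY, the acyltransferase that closes the coumarin ring after the F6'H1 step, had 1740 ± 284, 1524 ± 204 and 2012 ± 59.4 (SD, n = 3 each) in ga1-3, scl3-1 and SCL3 OE. Its difference from ga1-3 of 0.22 (SE 0.12) did not pass (limma adjusted p = 0.148), except without ga1-3 replicate 3 (0.35, adjusted p = 0.0235). Against scl3-1 it was higher by 0.41 (adjusted p = 0.0135), a call lost without scl3-1 replicate 1 (COSY 0.30, adjusted p = 0.0611) or SCL3 OE replicate 2 (0.39, adjusted p = 0.0522). BGLU42, another beta-glucosidase acting on coumarin glucosides, differed by 0.08 (adjusted p = 0.553), and the glucosyltransferase UGT71C1 by -0.17 (adjusted p = 0.357).

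F6'H2, the close homologue of AT3G13610, is named here after its values were seen. It had 234 ± 20.8 in ga1-3, 285 ± 32.7 in scl3-1, against 233 ± 37.4 in SCL3 OE (SD, n = 3 each), a difference of -0.01 between SCL3 OE and ga1-3 (limma adjusted p = 0.949). The sign of that difference turned with the scaling, to 0.09 with quantile normalization and 0.07 with median-centred arrays. Within the F6'H pair, then, AT3G13610 was called in SCL3 OE and F6'H2 was not, and the difference between them was not tested.

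None of the 7 coumarin genes was called in scl3-1 against ga1-3, where the median was 0.048. Over all tested probe sets 0.538% were called there, with a median of 0.00692, so no call among 7 genes is near that share. Against scl3-1, SCL3 OE had 4 of 7 called higher and none lower, with a median of 0.365, and 2 of 7 with quantile normalization. Over all tested probe sets 15.5% were called higher and 23.6% lower in that comparison, with a median of -0.0651. Without AT3G12900 and AT3G13610, 2 of 5 were called higher, with a median of 0.0426.

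Of 20 genes listed for the core phenylpropanoid pathway, which supplies feruloyl-CoA, 3 were on a named probe set, and all 3 were tested. UGT84A1, a glucosyltransferase of hydroxycinnamic acids, had 48.5 ± 29.9 in ga1-3, 105 ± 19.4 in scl3-1, against 342 ± 72.0 in SCL3 OE (SD, n = 3 each). Its rise in SCL3 OE was 3.09 (SE 0.42, limma adjusted p = 3.06e-05). It was below the filter level on all ga1-3 arrays, and the rise was 1.68 with those signals raised to that level. HCT, which makes shikimate esters of these acids, differed by 0.11 (adjusted p = 0.36) and CCR2, a cinnamoyl-CoA reductase, by 0.28 (adjusted p = 0.187). None of the 3 was called in scl3-1 against ga1-3, where 0.538% of all tested probe sets were called. UGT84A1 alone was called in SCL3 OE against scl3-1 (1.70, adjusted p = 0.00434), where 39.2% of all tested probe sets were called. UGT84A1 reached the filter level on 1 of the 3 scl3-1 arrays, so the size of that difference is uncertain too.

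The genes on which these regulators act were hardly covered. None of 8 genes listed for iron uptake and none of 9 for iron storage was on a named probe set. Of 19 for iron chelation and distribution 1 was, MTP8, a transporter that moves manganese and iron into the vacuole. MTP8 had 36.1 ± 5.54 in ga1-3, 28.5 ± 14.5 in scl3-1, against 98.2 ± 13.6 in SCL3 OE (SD, n = 3 each), and it failed the filter with 1 SCL3 OE array above the level. Fitted with no filter, it was higher in SCL3 OE than in ga1-3 by 1.45 (SE 0.40, limma adjusted p = 0.0165) and than in scl3-1 by 1.94 (adjusted p = 0.00321). As for BHLH19 and BHLH25, which differed the other way in that fit, the sizes rest on signals below the filter level, here on 8 of 9 arrays.

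**Figure D4:**
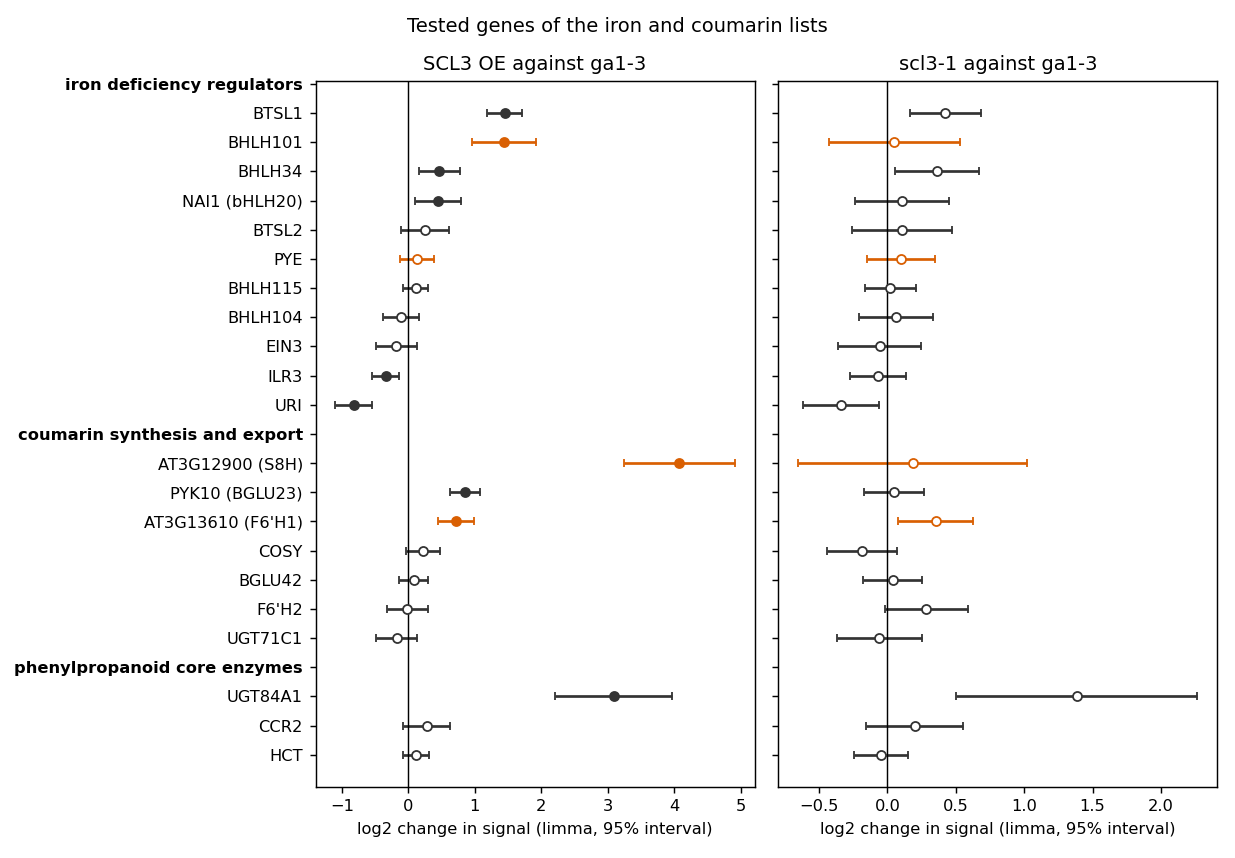
Difference of log2 signal against ga1-3, with 95% intervals from limma, for every tested gene of the regulator, coumarin and phenylpropanoid lists; the 4 genes are orange, and filled points were called. The horizontal ranges differ between panels. In SCL3 OE regulators lay on both sides of 0, and no gene was called in scl3-1, where 0.538% of all tested probe sets were.

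The patterns of the 4 genes over the 9 arrays were compared by the root mean square distance between log2 signals, each centred on its own mean. AT3G13610 and PYE were nearest to each other (0.287), followed by AT3G13610 and BHLH101 (0.487) and BHLH101 and PYE (0.68). AT3G12900 stood 1.38 from BHLH101, 1.69 from AT3G13610 and 1.91 from PYE. This distance counts the size of a change as well as its shape, so the order follows the sizes given above, and for AT3G12900 and BHLH101 it rests in part on signals below the filter level.

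By the same measure over 7672 other named and tested probe sets, the genes most like AT3G12900 were MSRB6 (0.751), AT3G56290 (0.825), scpl31 (0.891), AT1G73120 (0.983) and AT5G37690 (0.995). For comparison, AT3G12900 itself varied by 1.94 around its mean. These distances include the scatter of AT3G12900 below the filter level (log2 SD 0.912 in ga1-3). They do not settle how closely any of these genes followed it. AT3G13610 was followed by AT2G16660 (0.096), AT3G21690 (0.102), AT5G17010 (0.121), AT2G30780 (0.122) and AT4G39720 (0.124), against its own variation of 0.336.

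BHLH101 was most like psbA, a chloroplast gene of photosystem II, at 0.118 against its own variation of 0.719. The psbA probe set had mean signals of 77.4 in ga1-3, 76.1 in scl3-1, against 192 in SCL3 OE. In ga1-3 and scl3-1 these means, like the BHLH101 signals, lie below the filter level. The distance does not settle how closely psbA followed BHLH101, and 2780 of 7672 probe sets were nearer to BHLH101 than a flat pattern. AT2G34810 (0.194), AT5G59680 (0.205), AT1G77280 (0.218) and AT4G26790 (0.218) came next. PYE was nearly flat, with a variation of 0.0727, and the nearest genes, APK1A (0.0572), AT2G32070 (0.0595), AT5G58030 (0.0595), AT1G05280 (0.0605) and ETL1 (0.0617), were flat as well.

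The nearest named and tested gene on either side of each gene, in TAIR10.1 order, gave 8 neighbours. In SCL3 OE against ga1-3, AT3G47650, the gene next after PYE, rose by 0.79 (SE 0.17, limma adjusted p = 0.00136). AT3G12870, 3 genes before AT3G12900, fell by 0.57 (SE 0.14, adjusted p = 0.00536), and AT3G13650, 4 genes after AT3G13610, fell by 0.55 (SE 0.09, adjusted p = 0.000152). The other 5 neighbours did not pass, both neighbours of BHLH101 among them, and 3 of 8 called is near the 43.8% called over all tested probe sets. In scl3-1 against ga1-3 AT3G13650 was called higher (0.47, adjusted p = 0.0254), the opposite direction, a call that 8 alternatives ended, and the other 7 neighbours were not called.

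Markers of root cell types also differed between the groups. All 4 measured root hair markers, of 11 listed, fell in SCL3 OE, with a median of -0.732 and a summed signal of 3875 to 3976 per array, against 6275 to 6412 in ga1-3 and 6174 to 6946 in scl3-1. Over all tested probe sets 25.9% were called lower. Both cortex markers fell (median -0.885), with sums of 769.7 to 816.2 in SCL3 OE, 1590 to 1677 in ga1-3 and 1708 to 2102 in scl3-1. XTH26, a root hair marker, was below the filter level on all SCL3 OE arrays. The direction held for all 6 genes under quantile normalization and median-centring, though EXPA7 was not called under the former (-0.26, limma adjusted p = 0.103) nor without ga1-3 replicate 1 (0.0942) or SCL3 OE replicate 1 (0.0685) or 2 (0.0555). CO2 was not called without ga1-3 replicate 1 (0.0802) or SCL3 OE replicate 2 (0.0745).

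Of 6 endodermis markers GSO1 alone was measured, and its difference of 0.31 did not pass the test (limma adjusted p = 0.0958), though both other scalings called GSO1 higher, by 0.44 after quantile normalization (adjusted p = 0.032) and by 0.39 after median-centring (adjusted p = 0.0434). Of 7 shoot markers 2 were measured: RCA rose by 0.32 and LHCB4.1 fell by 0.51 in SCL3 OE, with the RCA call lost without ga1-3 replicate 1 (adjusted p = 0.0542) or any 1 SCL3 OE array (0.0514 to 0.0629). Their sums were 1830 to 1871 in SCL3 OE, 1764 to 1921 in ga1-3 and 1936 to 2210 in scl3-1. The rises of BHLH101, AT3G13610 and AT3G12900 went with lower root hair and cortex markers. The part of these cell types in the rises was not tested.

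**Figure D5:**
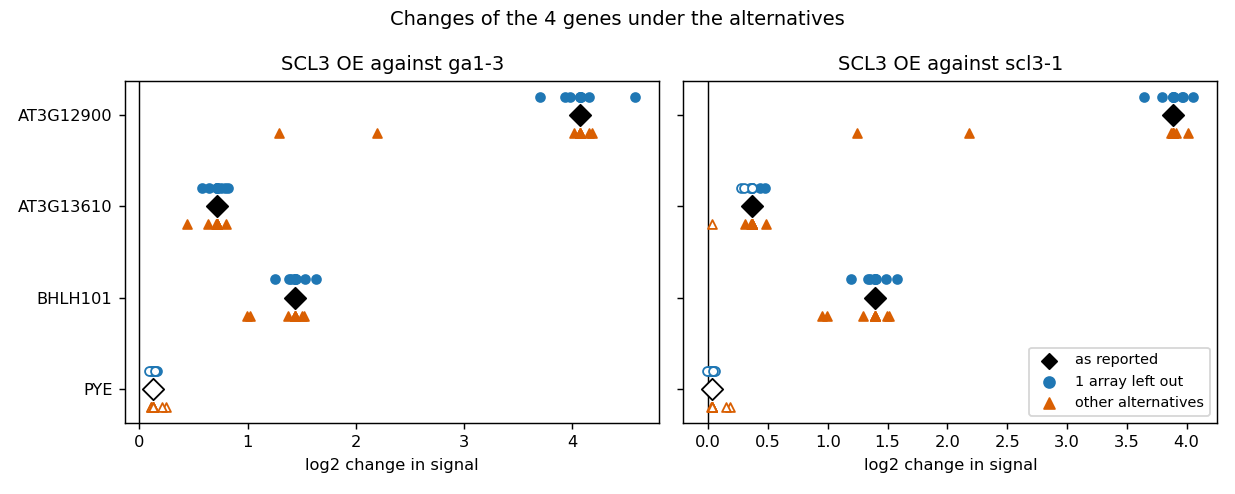
Difference of log2 signal for each gene as reported (diamonds), with 1 array left out (circles) and under the other alternatives (triangles); filled symbols had an adjusted p under 0.05. In SCL3 OE against ga1-3 AT3G12900, AT3G13610 and BHLH101 kept their calls under every alternative that gave a value, with AT3G12900 between 1.29 and 4.58. For AT3G12900 and BHLH101 the call with signals raised to the filter level is no separate support.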

How the data were processed

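The deposited table holds 1 signal intensity per probe set and array in linear units, which the authors computed with MAS5 in Affymetrix Expression Console 1.1, per the submitters' processing notes. Per the labels' protocols, 300 ng of root RNA was amplified with a 3' IVT kit and biotin-labelled. Each array's 2% trimmed mean was 496.0 to 497.0, and the deposited scaling was kept. Everything from log2 on was computed here in R 4.3.3 with limma 3.58.1: a group-means model over 9 arrays, eBayes with a mean-variance trend (6 residual and 9.37 prior degrees of freedom), two-sided tests, Benjamini-Hochberg adjustment over all 14117 kept probe sets. Every adjusted p is from limma. Intervals are 95%, and errors of changes are model standard errors. The fit was tested on simulated data first. Precision is limited by the number of arrays.

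Names came from the platform annotation, which gave 13513 probe sets 1 gene and 503 several, with 8730 unnamed here. A gene with several probe sets is represented by the brightest. Named were the 4 genes, the 6 genes of smallest p of each iron, coumarin or phenylpropanoid list (all if 6 or fewer were measured), and the 5 named probe sets nearest in pattern to each gene; other names were chosen after their values were seen. Members and lists were chosen with earlier results of these data known, so no list is independent evidence of a direction. The replicate numbers were not treated as pairs in the main fit. Deviations from group means correlated by -0.19 to 0.177 between arrays of the same number and by -0.173 to 0.244 between others. These ranges do not settle whether the numbers pair samples. Alternatives were other filters, scalings, offsets, variance models, array weights, a replicate block, the compared arrays alone and leaving out each array.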

Additional observations from a re-analysis of the deposited data

How the results depend on the processing

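In SCL3 OE against ga1-3, AT3G12900, AT3G13610 and BHLH101 kept direction and call under every alternative that gave them a value, and PYE stayed uncalled (adjusted p 0.104 to 0.627). For AT3G12900 and BHLH101 the alternative with raised signals is no separate support, since it sets all their ga1-3 and scl3-1 signals to the filter level. The stricter 60th percentile filter gave no value for AT3G12900, BHLH101 or PYE. In SCL3 OE against scl3-1, AT3G13610 (0.36) was not called with no filter (0.36, adjusted p = 0.0672), with quantile normalization (0.0296, 0.882) or with eBayes without a trend (0.36, 0.0683), and leaving out 1 array gave 0.27 to 0.47, with the call lost without scl3-1 replicate 1 (0.131) or 3 (0.0847) or SCL3 OE replicate 2 (0.142) or 3 (0.0794). The cause was not tested. The 76 calls in scl3-1 against ga1-3 were 36 with no filter, 123 with array weights, 30 with the 6 compared arrays alone, 20 without a trend and 3 to 148 with 1 array left out. Called coumarin genes in SCL3 OE against scl3-1 (4) were 2 with quantile normalization and 2 to 4 with 1 array left out (2 to 5 over all alternatives), and regulators (4) were 2 to 4 with 1 array left out and 2 to 6 over all alternatives. Called phenylpropanoid genes there (1) were 2 with median-centred arrays, and in scl3-1 against ga1-3 (0) they were 0 to 1 with 1 array left out. Among differences that were never called, the sign turned for AT3G12900 in scl3-1 against ga1-3 without ga1-3 replicate 2 (range -0.19 to 0.69), for BHLH101 there without ga1-3 replicate 3 (-0.14) or scl3-1 replicate 2 (-0.13; range -0.14 to 0.25), for PYE in SCL3 OE against scl3-1 without SCL3 OE replicate 2 (-0.0069, range to 0.0574), for BGLU42 without ga1-3 replicate 1 (range -0.013 to 0.158) and for F6'H2 (0.0918 with quantile normalization, 0.0694 median-centred, 0.0105 with array weights, and without ga1-3 replicate 1 or 3 or SCL3 OE replicate 1 or 2, range with 1 array left out -0.139 to 0.0796). With a replicate block, SCL3 OE against ga1-3 gave AT3G12900 4.07 (adjusted p = 5.46e-06), AT3G13610 0.72 (2.77e-05), BHLH101 1.44 (7.46e-05) and PYE 0.13 (0.417), and no call of the 4 genes changed. AT3G13610 was lowest on replicate 1 and highest on replicate 2 in each group. Median-centring moved the median of all changes in SCL3 OE against scl3-1 by 0.12. Relative to the median of all changes, AT3G13610 was 0.43 higher there as deposited, a value that median-centring cannot alter. With quantile normalization it was 0.0199 higher than the median.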
